A study of Homo sapiens with 6 samples.

Results

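Cathepsins and cystatins were followed in REH cells, a line from a human B-cell precursor leukemia in which ETV6 is fused to RUNX1. The family was chosen by the measured fall of the cathepsin L (CTSL) transcript after knockdown of the fusion, and the question was whether that fall was shared by its relatives. Its members were 10 genes (CTSL, CTSA, CTSB, CTSC, CTSD, CTSH, CTSS, CTSZ, CST3 and CST7) of the 19721 genes named through the catalogue probes of the array, and they were found by the RefSeq accession that the array files give for each probe. They were read by 13 probes, with 3 probes for CTSC, 2 for CTSA and 1 for each of the other genes. RNA was measured on 6 one-color Agilent arrays. Control cells received a non-targeting short hairpin RNA (shRNA) and knockdown cells an shRNA against the fusion, with 3 arrays in each group. Per the study's methods, both hairpins were delivered by lentivirus with a green fluorescent marker by which the cells were sorted, and the control hairpin was itself directed at ETV6 but spared the fusion transcript. Every value comes from this 1 cell line and from 1 hairpin per group. The labels number the replicates 1 to 3 in each group, and the study speaks of biological triplicates. CTSL was 3.58-fold lower in the knockdown, whereas none of the 12 probes of the other 9 genes passed the test for a change, against 1.74% of all probes. The inhibitor CST7 read higher in the knockdown, but was near background on most control arrays.

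Cathepsins are peptidases that mostly work in the acidic lumen of lysosomes, where they break down proteins delivered by endocytosis and autophagy. Most are cysteine peptidases of the papain type, while cathepsin D is an aspartic and cathepsin A a serine peptidase. Cystatins are small proteins that bind cysteine cathepsins and block them, so that the balance of both sets the cysteine peptidase activity of a cell. In B cells, cathepsins also trim antigens and the invariant chain before peptides are loaded onto MHC class II molecules.

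Promoter sequence was available from RefSeq (GRCh38.p14) for 7 of the 10 genes, and the 250 bases before the annotated start were searched on both strands for 4 short motifs that were chosen with the values already known. These were TGTGGT and TGCGGT, which RUNX proteins bind, the E-box CACGTG, which the lysosomal regulators TFEB and TFE3 bind, and CCAAT, a common promoter element. CTSL is shown as the member that was much lower in the knockdown, CTSA and CTSD as the members with an E-box, and CST3 as the member with a RUNX hexamer. Each sequence reads 5′ to 3′ on the strand of its gene, and capitals mark the motif.
CTSL: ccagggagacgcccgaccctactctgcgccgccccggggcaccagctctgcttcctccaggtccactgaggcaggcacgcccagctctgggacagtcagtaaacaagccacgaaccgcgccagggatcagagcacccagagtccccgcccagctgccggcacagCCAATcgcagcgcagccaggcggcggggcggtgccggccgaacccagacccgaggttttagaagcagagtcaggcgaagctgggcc
CTSA: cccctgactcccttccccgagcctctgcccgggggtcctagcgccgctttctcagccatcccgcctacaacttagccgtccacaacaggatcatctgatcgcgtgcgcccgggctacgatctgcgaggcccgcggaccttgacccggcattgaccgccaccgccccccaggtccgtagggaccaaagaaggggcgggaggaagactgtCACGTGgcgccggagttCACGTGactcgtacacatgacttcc
CTSD: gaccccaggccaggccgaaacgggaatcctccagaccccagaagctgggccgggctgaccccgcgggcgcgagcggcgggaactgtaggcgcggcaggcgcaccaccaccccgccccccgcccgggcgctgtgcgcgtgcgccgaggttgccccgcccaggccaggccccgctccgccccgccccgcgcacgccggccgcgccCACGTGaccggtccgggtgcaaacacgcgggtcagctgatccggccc
CST3: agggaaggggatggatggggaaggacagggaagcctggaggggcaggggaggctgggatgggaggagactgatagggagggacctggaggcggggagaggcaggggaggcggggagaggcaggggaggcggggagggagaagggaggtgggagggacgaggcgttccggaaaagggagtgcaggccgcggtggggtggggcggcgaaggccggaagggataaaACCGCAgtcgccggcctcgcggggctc

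The CTSL window lay at chr9:87725869-87726118 on the plus strand and held CCAAT, whose first letter was 86 bases before the start. The same element stood in the CTSC window, 84 bases before the start, and in 32% of the 34943 promoters of the table. No E-box and neither RUNX hexamer was spelled in the CTSL window. The CTSA window (chr20:45891085-45891334, plus strand) held 2 E-boxes, 42 and 25 bases before the start, and the CTSD window (chr11:1763928-1764177, minus strand) held 1 at 47 bases, against 6.32% of all promoters with at least 1. The CST3 window (chr20:23637956-23638205, minus strand) held ACCGCA, the reverse complement of TGCGGT, 27 bases before the start, a hexamer found in 5.82% of promoters. The other RUNX hexamer, in 11% of all promoters, was in none of the 7. A match of letters is a description of the window and says nothing of binding in these cells.

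Raw median intensity per array was between 66 and 75, no spot was saturated, and between 45.7% and 51.0% of the probes were well above background by the flag of the scanner software. A median this near background says little of how even the arrays were for bright probes. All 13 member probes passed the filter on dim probes, as did 27490 of 57176 probes in all, and 11 of the 13 were well above background on every array. ETV6, the target of the hairpin, was read by 1 retained probe at normalized log2 values of 7.92, 8.05 and 8.37 in the control and 7.50, 7.46 and 7.29 in the knockdown. It was lower by 0.70 (SE 0.14) without passing the test (limma, adjusted p = 0.0513), and its second probe stayed near background throughout. Over 16 alternatives the ETV6 difference ran from -0.96 to -0.42. The study itself reports the knockdown by western blot and RT-qPCR, and states that REH cells have lost the wild-type ETV6 allele. Of the B-precursor markers that define the line, 11 of 12 were well above background on all arrays, including PAX5, EBF1 and RAG1.

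First, CTSL was examined. Cathepsin L is a cysteine endopeptidase of the lysosome, and its probe (A_23_P94533, NM_001912, gene on chromosome 9) read 11.68, 11.52 and 11.62 in the control and 9.93, 9.70 and 9.66 in the knockdown, as normalized intensity on the log2 scale. The lowest control array stood well above the highest knockdown array, and groups were apart in that direction for 9.89% of all retained probes. In raw intensity, the spot gave 3123, 2944 and 3375 in the control and 1154, 791 and 760 in the knockdown. The means were 11.61 ± 0.08 and 9.76 ± 0.15 (SD, n = 3 each), a difference of -1.84 that corresponds to a level 3.58-fold lower in the knockdown. Within pairs of the same replicate number, the difference was -1.75, -1.82 and -1.96. It was the decrease of rank 32 among the 27490 retained probes. Because this fall chose the family, it is given as a description with no test. This was bulk RNA of a sorted cell line, in which fewer cells with the transcript and less of it per cell cannot be told apart. RefSeq lists 7 pseudogenes named after CTSL, and as no probe sequence was at hand, their share in the signal was not tested.

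**Figure D1:**
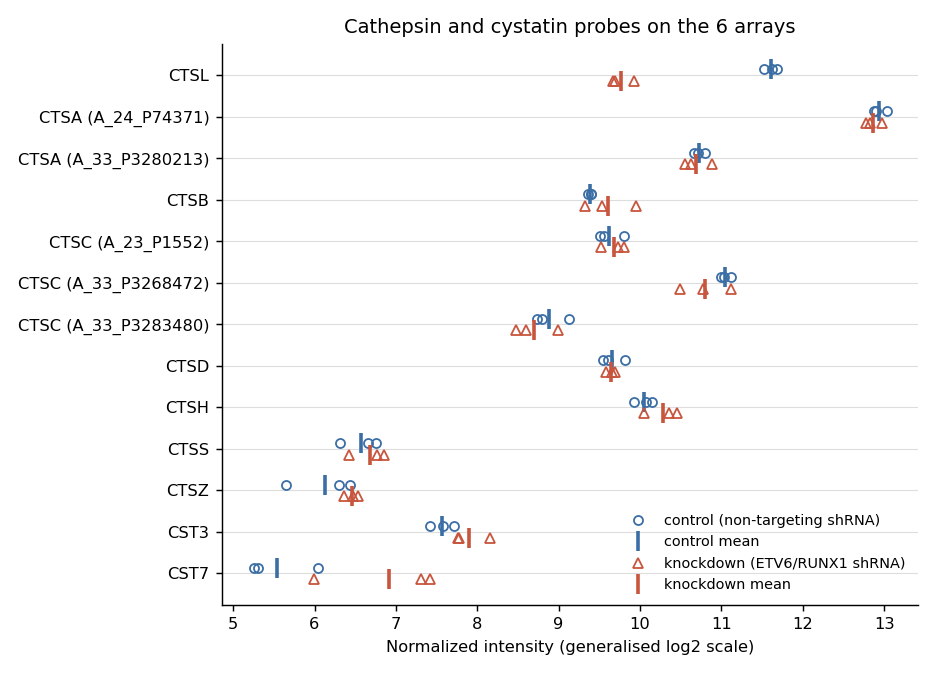
Normalized intensity (horizontal axis, generalised log2 scale) of the 13 probes of the 10 genes on each array, with control arrays as circles, knockdown arrays as triangles and group means as vertical ticks. The groups of CTSL are far apart (means 11.61 and 9.76), those of CST3 stand apart by a small step, and those of every other probe overlap.

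Next, the other cysteine cathepsins were compared, for which adjusted p-values come from limma over all 27490 retained probes. Across that table, 1.74% of the probes had an adjusted p under 0.05, called changed here, and 1.28% were called lower. None of the 7 probes of CTSB, CTSC, CTSH, CTSS and CTSZ was called in either direction. Cathepsin B, which both cuts within chains and trims their ends, read 9.40, 9.40 and 9.36 in the control and 9.95, 9.53 and 9.32 in the knockdown. The 3 control arrays nearly coincided and lay within the spread of the knockdown arrays, with a difference of +0.22 (SE 0.16, adjusted p = 0.638). The value was 0.041 without knockdown replicate 1 and 0.35 without knockdown replicate 3. Cathepsin H, an aminopeptidase, read 10.07, 9.92 and 10.15 against 10.36, 10.05 and 10.45. Its difference of +0.24 (SE 0.13, adjusted p = 0.514) left an overlap of 1 knockdown array with the control arrays.

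Cathepsin C, also called dipeptidyl peptidase I, activates the serine proteases of granules, and its 3 probes did not point the same way. The probe for NM_001114173 read 11.12, 11.04 and 10.99 in the control and 11.12, 10.78 and 10.49 in the knockdown, a difference of -0.25 (SE 0.16, adjusted p = 0.568). That was the lowest value of any member but CTSL, and it came from knockdown replicates 2 and 3, while replicate 1 read the same as the highest control array to 2 decimals. The difference was -0.42 without knockdown replicate 1 and -0.10 without knockdown replicate 3. The probe for NM_148170 read 9.13, 8.80 and 8.73 against 8.995, 8.60 and 8.48, with a difference of -0.19 (adjusted p = 0.686). The probe for NM_001814 read 9.55, 9.50 and 9.80 against 9.80, 9.73 and 9.52, with a difference of +0.07 (adjusted p = 0.870). Averaged over its 3 probes, CTSC differed by -0.13 (SE 0.13, adjusted p = 0.746). Groups overlapped for all 3 probes.

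Cathepsin S, an endopeptidase that degrades the invariant chain in antigen-presenting cells, was dim, at 6.76, 6.66 and 6.31 in the control and 6.77, 6.85 and 6.42 in the knockdown. Both groups covered nearly the same range, with a difference of +0.10 (SE 0.16, adjusted p = 0.834). Cathepsin Z, a carboxypeptidase, read 6.44, 6.31 and 5.65 against 6.47, 6.53 and 6.37. Its probe was well above background on 2 of the 3 control arrays, and the difference of +0.33 (SE 0.20, adjusted p = 0.556) rested on control replicate 3, without which it was 0.09. Control replicates 1 and 2 lay in another row of the slide than the other 4 arrays. A fit with the slide row as a term therefore sets the knockdown arrays against that same low control array alone, and gave 0.80 for CTSZ (adjusted p = 0.0877). Spike-in scaling gave 1.101 (adjusted p = 0.0346), the only setting that called it, and the 75th percentile 0.76.

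Cathepsins of the other catalytic classes were then set beside them. Cathepsin D, the main aspartic peptidase of lysosomes, read 9.81, 9.60 and 9.55 in the control and 9.69, 9.58 and 9.66 in the knockdown. Group means of 9.65 ± 0.14 and 9.64 ± 0.06 (SD, n = 3 each) differed by -0.01, with a 95% interval from -0.26 to 0.24 (adjusted p = 0.980). Cathepsin A, a carboxypeptidase that also protects beta-galactosidase and neuraminidase in a complex, read 12.88, 13.03 and 12.89 against 12.78, 12.97 and 12.83 with its first probe (A_24_P74371). This difference of -0.08 (SE 0.10, adjusted p = 0.812) was in the same direction in all 3 pairs, and the groups overlapped. Its second probe (A_33_P3280213) read 10.80, 10.71 and 10.66 against 10.55, 10.88 and 10.62, a difference of -0.04 (adjusted p = 0.929). The pair of genes with an E-box in the printed promoters thus had differences close to 0, with 95% intervals that reached no lower than -0.31.

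Finally, both cystatins of the family were higher in the knockdown without being called. Cystatin F (CST7), an inhibitor made by blood cells that acts inside lysosomes on cathepsin C among others, read 6.04, 5.31 and 5.25 in the control and 7.42, 7.31 and 6.00 in the knockdown. Knockdown replicates 1 and 2 stood above all other arrays, and replicate 3 fell just under the highest control array. In raw intensity these were 78, 54.5 and 57 against 213, 167 and 77, and the probe was well above background on 1 control array and 3 knockdown arrays. Means of 5.53 ± 0.44 and 6.91 ± 0.79 (SD, n = 3 each) gave a difference of +1.38 (SE 0.38, 95% interval 0.50 to 2.25, adjusted p = 0.165). It was the only member probe that passed the filter on dim probes through 1 group alone, the knockdown, where it read high. A probe that enters in this way has to differ to some degree, so its p-values are given as a description. The difference was positive in all 3 pairs and smallest in the third, at +0.75. With the replicate number as a block, the same difference had an adjusted p of 0.0267, in a fit that called 3.78% of all probes, and without knockdown replicate 3 the value was 1.83 (adjusted p = 0.0361). Since most control spots were near background, the generalised log2 scale understates a change of this probe.

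Cystatin C (CST3), a secreted inhibitor of most cysteine cathepsins, read 7.72, 7.42 and 7.58 in the control and 8.15, 7.76 and 7.77 in the knockdown. The lowest knockdown array was above the highest control array, an arrangement that 9.03% of all retained probes also showed in that direction. The difference was +0.32 (SE 0.14, adjusted p = 0.400), and it was positive in each pair at 0.44, 0.35 and 0.19. With 1 array left out it ran from 0.19, without knockdown replicate 1, to 0.40.

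**Figure D2:**
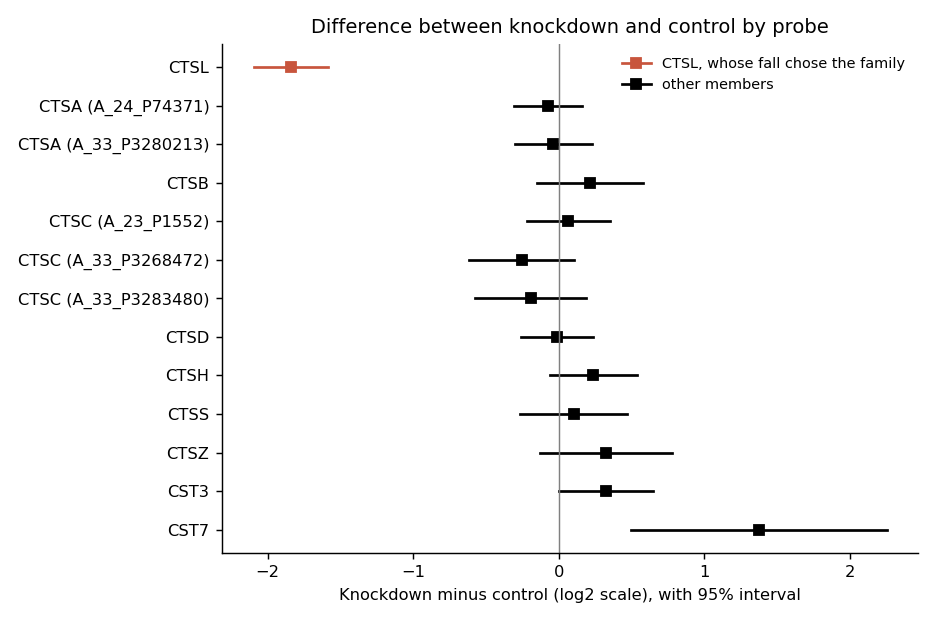
Difference between knockdown and control (horizontal axis, log2 scale) for each of the 13 probes, with squares for the estimate and bars for the 95% interval of the limma fit. CTSL, drawn in red as the gene that chose the family, sits at -1.84, while the intervals of all other probes stay above -0.62 and that of CST7 reaches 2.25.

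Over the 9 genes other than CTSL, none of the 12 probes was called, against 1.74% of all probes, while 1, that of CST7, had an unadjusted p under 0.05, as had 12.5% of all retained probes. The other 11 of these 12 passed the filter in both groups. By sign, 5 were lower and 7 higher, with a median difference of 0.09, and over all retained probes the median was -0.002 with 50.3% lower. No 95% interval of the 12 held the value of CTSL, and the lowest bound of any of them was -0.62, for a CTSC probe. Smaller decreases, inside those intervals, could not be told from no change with 3 arrays per group. As CTSL was chosen for its fall, of rank 32 among all retained probes, the comparison with its value is a description and no test. Scaling of the processed intensity on 5 spike-in probes moved the median of all retained probes to 0.39 and turned the sign of the 5 lower probes, so that all 12 were higher. CST7 (3.30, adjusted p = 0.000318) and CTSZ (1.101, adjusted p = 0.0346) were then called, and CST7 was called with the replicate block. CTSL then read -1.55, or -1.94 relative to that median.

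Lysosomal genes outside the family were read from lists chosen with earlier results of these data known. Of the other cathepsins, 4 of 7 probes were retained and none was called (median -0.06). CTSO, a cysteine cathepsin, had the lowest p at -0.11 (adjusted p = 0.679), and the probes of CTSV, the closest relative of CTSL, and of CTSW never rose well above background. Of the other cystatins, only CST5 (+0.22, adjusted p = 0.577) and CSTB were retained, and neither was called. Of 52 retained probes for soluble lysosomal enzymes and their cofactors, 24 were lower and 28 higher (1 and 51 with spike-in scaling), none was called, and the median was 0.02. The lowest p there was that of SGSH, a sulfatase of heparan sulfate breakdown, at 10.94, 10.38 and 10.37 in the control and 10.18, 9.31 and 9.70 in the knockdown. Its groups did not overlap, as for 9.89% of all retained probes in that direction, and the difference was -0.83 (SE 0.24, adjusted p = 0.1802). With the replicate block, which called 3.78% of all probes, adjusted p was 0.0132. Spike-in scaling gave -0.46 (adjusted p = 0.260). LGMN, the asparaginyl endopeptidase that processes several cathepsins, never rose well above background.

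Among the lysosomal lists outside the family, calls were made only for lysosomal membrane proteins, or for these and SGSH with the replicate block. For the membrane proteins 3 of 30 retained probes, or 10%, were called lower and none higher, against 1.28% and 0.458% of all probes, while the list median was -0.05. With the replicate block, in a fit that called 3.78% of all probes, ABCA2, a lipid transporter, was also called, in the higher direction (+0.47). The 3 belonged to 2 genes. One of the 3 passed the filter through the control group alone, where it read high, and 2 of the 29 probes that passed in both groups were called. CD68, a heavily glycosylated membrane protein known as a macrophage marker, read 7.41, 7.35 and 7.38 in the control and 6.91, 6.79 and 6.69 in the knockdown, a difference of -0.58 (SE 0.10, adjusted p = 0.0284). HGSNAT, an acetyltransferase of heparan sulfate breakdown, read 10.42, 10.83 and 10.77 against 9.63, 9.74 and 10.02 with its brighter probe, a difference of -0.87 (SE 0.15, adjusted p = 0.0314). For its dimmer probe no knockdown array gave a signal well above background, and the difference was -0.52 (SE 0.09, adjusted p = 0.0306). Its size depended on the processing, from -1.36 with the 75th percentile to -0.31 with normexp. The dimmer probe is the one that passed the filter through the control group alone, so its p is a description. Neither gene's groups overlapped, an arrangement that 9.89% of all retained probes showed in that direction. The call of CD68 was lost without any single array other than knockdown replicate 1, with adjusted p up to 0.132. Its difference ran from -0.64 to -0.53 over the 6 such fits. The HGSNAT calls were likewise kept in 1 of 6 such fits for each probe. With spike-in scaling, CD68 read -0.33 (adjusted p = 0.336) and the brighter HGSNAT probe -0.52 (adjusted p = 0.220), so that neither was called. With the slide row as a term, which leaves control replicate 3 as the lone control array, the differences were -0.58 and -0.97 and adjusted p was 0.260 and 0.169.

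The steps before and after the lysosome gave no call. Among 21 probes for the sorting of lysosomal enzymes, which starts with the mannose 6-phosphate tag, the median was 0.02, and GNPTAB, a subunit of the tagging enzyme, had the lowest p at -0.32 (adjusted p = 0.237). TFEB, TFE3 and ZKSCAN3, regulators of lysosomal genes, were read by 5 retained probes with a median of 0.09 (TFE3 +0.19, adjusted p = 0.565). Of the granule proteases that cathepsin C activates, 4 of 13 probes were retained with a median of -0.07 (PRSS57 -0.26, adjusted p = 0.465). Antigen processing was read by 8 probes with a median of 0.04, among them CIITA, the master regulator of MHC class II, at -0.26 (adjusted p = 0.309) with 1 probe and -0.05 (adjusted p = 0.897) with the other, and CD74, the invariant chain, at +0.24.

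**Figure D3:**
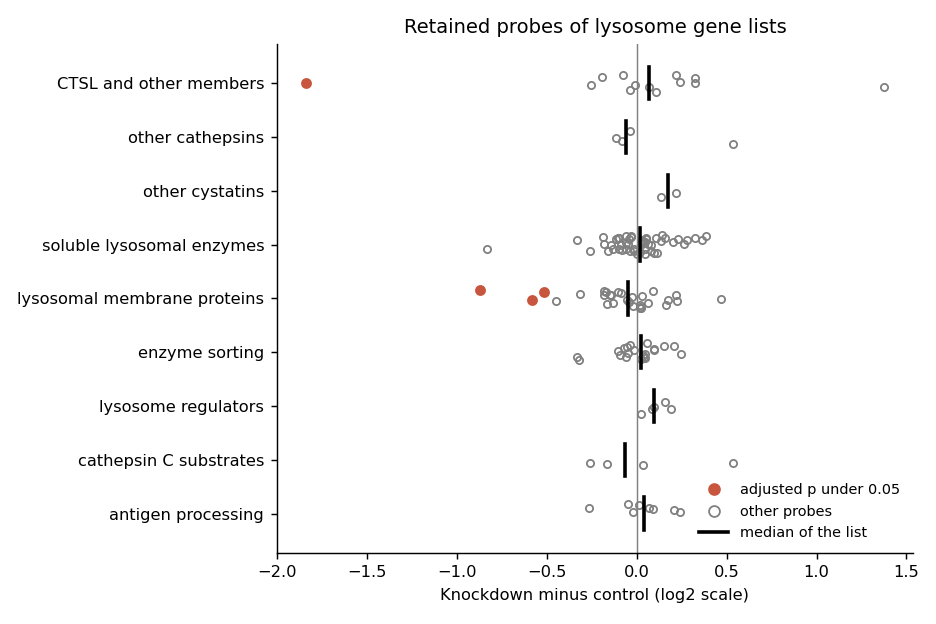
Difference between knockdown and control (horizontal axis, log2 scale) of every retained probe in 9 lists, with filled red points for probes with an adjusted p under 0.05, open points for the others and a black line for the median of each list. CTSL lies at -1.84, the 3 called membrane protein probes lie between -0.87 and -0.52, and all medians lie between -0.07 and 0.18.

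Cathepsins and CD68 are abundant in macrophages, so markers of other blood cells were read on the same arrays. Of 11 monocyte and macrophage probes 6 were retained, and all 6 read lower in the knockdown (5 with normexp and 2 with spike-in scaling), as did 50.3% of all retained probes. The 6 belonged to 4 genes, with MSR1 read repeatedly (-0.58, -0.26 and -0.29), CD14 at -0.13 and CSF1R at -0.05. FCGR1A and LYZ had no named probe. Summed over the 11, normalized intensity was between 2798 and 3320 on the control arrays and between 2154 and 2675 on the knockdown arrays. One of them was called, against 1.28% of all probes called lower. With the replicate block 2 were called, both lower, in a fit that called 3.78% of all probes. The one without the block was MRC1, the mannose receptor, at 7.76, 7.72 and 7.86 against 6.40, 6.43 and 6.28 (-1.41, adjusted p = 0.000685), and MSR1 held the brightest probes. CD163, MARCO, C1QA, C1QB and VSIG4 gave no signal well above background. Of 7 neutrophil marker probes 2 were retained (CSF3R and CXCR2), with a sum over the 7 of 2018 to 3246 against 801 to 1290, mostly from CSF3R. That gene was called lower (-1.58, adjusted p = 0.0391, but up to 0.172 with 1 array left out, and -1.32 with the slide row as a term). CEACAM8, S100A8, S100A9, LTF and CAMP never rose well above background. Of 13 T and NK cell probes 6 were retained and none called (NKG7 +0.62, adjusted p = 0.137; CD3D and CD8A were the next brightest), with a sum of 796 to 846 against 926 to 984, and CD3E, CD3G, GNLY, KLRD1 and PRF1 were not well above background. Of 16 B-precursor probes 14 were higher and none called (CD22 +0.67, adjusted p = 0.0541), with a sum of 276472 to 291556 against 328822 to 367831, mostly from CD79A, CD24 and IGLL1. With the replicate block 4 of them were called higher (CD22 adjusted p = 0.0265), in a fit that called 3.78% of all probes. The part of these shifts in the values of CTSL, CST7 and CD68 was not tested.

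Lastly, the profile of CTSL over the 6 arrays was compared with 17537 retained and named catalogue probes. By Pearson's r, the genes most like it were EFNA1, an ephrin ligand (0.9995), ATP6V0A4, an isoform of a subunit of the vacuolar-type proton pump (0.9992), EEF1AKMT2, a lysine methyltransferase (0.9985), SOCS2, an inhibitor of cytokine signaling (0.9977), and NRP1, a coreceptor of semaphorins and VEGF (0.9968). Their differences were -2.29 for EFNA1, -2.77 for ATP6V0A4, -0.44 for EEF1AKMT2, -1.82 for SOCS2 and -1.74 for NRP1. That of EEF1AKMT2 did not pass the test (limma, adjusted p = 0.0553, and -0.11 with spike-in scaling). With 6 arrays in 2 groups, such an r mostly describes the step between groups and a small spread within them. Among the other members, r with CTSL ran from -0.75 for CST7 to 0.64 for the CTSC probe of NM_001114173.

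**Figure D4:**
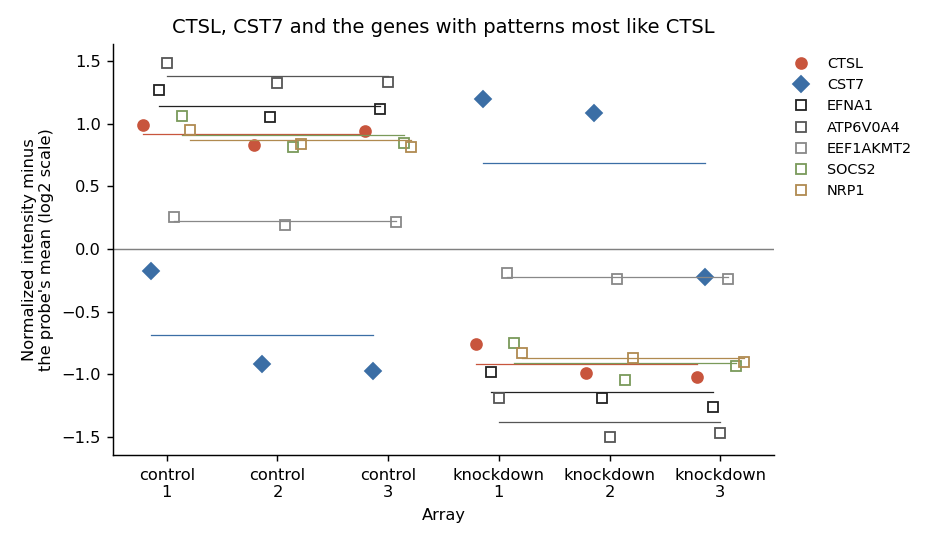
Normalized intensity of CTSL (red circles), CST7 (blue diamonds) and the 5 genes with profiles most like CTSL (open squares) on each of the 6 arrays, as the distance from the mean of the probe (vertical axis, log2 scale), with lines for group means. EFNA1, ATP6V0A4, SOCS2 and NRP1 step down with CTSL between the groups, EEF1AKMT2 differs by -0.44 without passing the test, and CST7 steps up with a wide spread.

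The size of the CTSL difference varied little with the processing. Over 16 alternatives it ranged from -1.93 to -1.55. CST7 varied most, from 0.87 with background correction by normexp to 2.95 and 3.30 where the background-subtracted processed intensity was scaled on the 75th percentile or on spike-in probes, and was called in 3 of the 16.

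**Figure D5:**
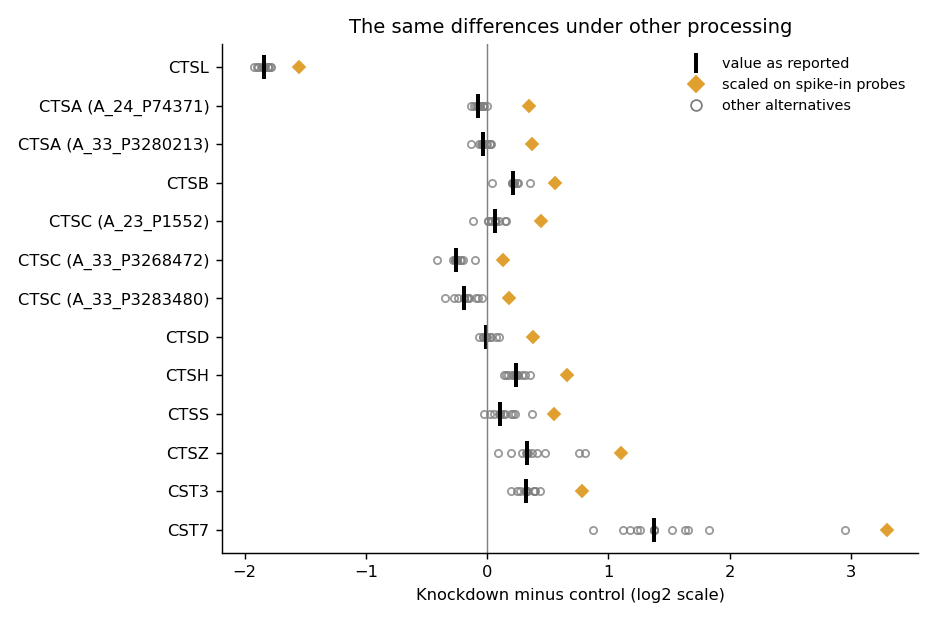
Difference between knockdown and control (horizontal axis, log2 scale) of each probe as reported (black ticks), with scaling on spike-in probes (diamonds) and under the other settings (open circles). CTSL stays between -1.93 and -1.55, most other probes stay near their reported value except under spike-in scaling, and CST7 spreads from 0.87 to 3.30.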

How the data were processed

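Labelled RNA of 6 samples was hybridised with Cy3 to 6 one-color arrays of 62976 spots, which lay in 2 rows of 1 slide and were read in a single scan. The authors extracted spot intensities with Agilent Feature Extraction 10.7.1.1. The files deposited for each array hold raw and background intensity and flags, none of it normalized between arrays. The deposited table of log2 values for 27869 probes was used as an alternative.

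Raw median spot intensity was variance stabilized by an own implementation of the VSN model named in the study's methods (affine calibration and inverse hyperbolic sine, with the 0.9 quantile of least squares kept), and spots of a probe were averaged. Values correlated with the deposited ones at r from 0.99906 to 0.99967 on single arrays, across probes, which are not independent replicates. A probe was retained where it exceeded 1.1 times the 0.95 quantile of the 308 normalized negative controls on at least 2 of 3 arrays of a group. This reading of the filter, with 27490 probes, was chosen over one on raw values because it matched the deposited table better (27145 shared probes).

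The comparison of the groups used lmFit and eBayes of limma 3.58.1 (R 4.3.3, two-sided, no block), with Benjamini-Hochberg adjustment over all retained probes and a threshold of 0.05. The steps were tested on simulated data. For 1 probe, an exact permutation test over 3 and 3 arrays cannot go below p = 0.1, and the number of arrays limits the precision. Replicate numbers of the labels paired the arrays: deviations from the group mean correlated at 0.426, 0.287 and 0.204 for same-numbered arrays, although control 3 with knockdown 2 (0.170) and control 2 with knockdown 3 (0.187) also correlated. Alternatives covered normalization, filter, block, variance model, slide row, averaged probes and single arrays left out.

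Members, gene lists, motifs and tests were chosen with earlier results of these data known. All members were named, and of each other list the called genes or else that with the lowest p, for marker lists also the brightest probes, and the 5 genes most like CTSL. Symbols came from RefSeq accessions, which named 25728 of 34134 catalogue probes (75.4%). The 23042 custom probes for long non-coding RNA entered the fit and were not described.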

Additional observations from a re-analysis of the deposited data

How the results depend on the processing

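The CTSL difference, a description as its fall chose the family, stayed below 0 in all 16 alternatives and, with single arrays left out, ran from -1.93 to -1.79. The number of member probes called, which includes CTSL and lends it no support, was 3 with spike-in scaling (CTSL, CST7 and CTSZ at 1.101), 2 with the replicate block (CTSL and CST7) and 1 to 2 with single arrays left out, the second being CST7 without knockdown replicate 3. CST7 passed the filter through the knockdown group alone. The replicate block changed no other member's call.

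Spike-in scaling, which shifted the median of all probes upward, turned the sign of CTSA (0.34 and 0.37), CTSC (0.13 for NM_001114173 and 0.18 for NM_148170), CTSD (0.37), CTSO (0.21), GNPTAB (0.051), PRSS57 (0.11) and CIITA (0.10). With the 75th percentile, the second CTSA probe read 0.028 and CTSD 0.029. With the slide row as a term, that CTSA probe read 0.024, CTSC (NM_001814) -0.11 and CTSD 0.10, as they did in the second slide row alone (chosen after seeing the data), which is the same contrast with control replicate 3, assumed to vary like the others. With 1 array left out, the second CTSA probe ranged from -0.133 to 0.029, CTSD from -0.063 to 0.070 and CTSS from -0.028 to 0.233. None of the sign changes among members had an adjusted p under 0.281.

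Over all probes, calls numbered 478 (352 lower), against 938 with spike-in scaling (236 lower), 1038 with the replicate block (666 lower), 224 without a filter, 227 with the slide row and 191 to 553 with single arrays left out. The calls of CD68, both HGSNAT probes and CSF3R were kept in 7, 6 to 7 and 7 alternatives, and all 4 were lost without a filter, where the differences are the same and more probes are tested, and with the slide row as a term. That term leaves 1 control array, and gave -0.58 for CD68, -0.97 and -0.54 for HGSNAT and -1.32 for CSF3R. CD68 and the dimmer HGSNAT probe were also lost with normexp, CD68 and the brighter one with spike-in scaling, the brighter one and CSF3R with the 75th percentile, and CSF3R with the intensity trend. MRC1 was called in all 16. Probes near background (CST7, CTSZ) give the least certain values.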
